A study of Mus musculus with 4 samples.

Results

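The genes described here are 9 genes of the killing machinery of lymphocytes, namely the granzymes Gzma, Gzmb and Gzmk, the pore protein Prf1, the granule proteins Nkg7 and Ctsw, the receptors Klrd1 and Klrk1, and the death ligand Fasl. They were measured by all 11 probe sets that the array annotation assigns to one of these symbols alone, of 45037 probe sets that are not controls. Prf1 and Fasl have 2 probe sets each, and 0 further probe sets name one of the genes beside another symbol. The choice rests on the difference between genotypes itself, in which some of these genes are higher and Ctsw is lower. Values of the 9 genes in that contrast are therefore a description and carry no test.

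The RNA came from freshly sorted naive helper T cells, positive for CD4 and CD62L and negative for CD44, of mice aged 10 to 11 weeks. The knockout group had both furin alleles floxed and carried the CD4-cre transgene, so that deletion is driven by the CD4 promoter. The wild-type group consisted of littermates with both alleles floxed and no Cre. Furin is a protease of the proprotein convertase family, which cuts inactive precursors into mature proteins. Each group had 2 arrays, numbered 1 and 2, and the labels do not say whether these are separate mice, so the spread between them may be technical.

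Cytotoxic lymphocytes kill through 2 routes. In the first, granules release perforin, which forms pores, and granzymes, serine proteases that enter the target cell and trigger its death. In the second, Fas ligand on the killer cell engages the death receptor Fas on the target. Killer cell lectin-like receptors gate these responses in natural killer cells and CD8 T cells. Naive CD4 T cells are not armed killers, whereas activated and memory T cells can carry granzymes, Nkg7 and Klrk1.

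Signals differed with array number in both genotypes. Same-numbered arrays deviated together, with a correlation of 0.80 over the kept probe sets. The geometric mean of 18 probe sets of the bacterial controls, added to the hybridisation, was higher on the arrays numbered 2. The ratio was 6.04-fold in wild type and 5.87-fold in knockout. Because all arrays are scaled to one trimmed mean, this ratio also depends on the signal of the sample itself. Differences are given below as knockout minus wild type on the log2(signal + 15.3) scale, which understates changes of dim probe sets. The value within arrays numbered 1 comes first and that within arrays numbered 2 second. With 1 array left out, the genotypes are unequal in array number, so such values also carry the difference between array numbers. The SE is that of the limma fit of all 4 arrays without a term for the array number. For probe sets below the filter on low signal it comes from a separate such fit to all 45037 probe sets. The only Furin probe set read 435.1 and 343.9 in the wild-type arrays and 391.4 and 446.9 in the knockout arrays. Where it lies relative to the deleted part is not stated, so it checks neither the deletion nor the labels. Of the defining T cell transcripts, Cd4 read 3432.4 and 2974.4 in the wild-type arrays and 3032.1 and 3348.3 in the knockout arrays, so the labelled cell type was clearly present in all 4.

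In the limma fit to the whole table, 0 of 22518 probe sets were called at 0.05 after Benjamini-Hochberg adjustment, which is 0%, and 145 had an unadjusted p below 0.05. In 4 of the 11 probe sets, those of Gzma, Gzmb, Nkg7 and Klrk1, both knockout arrays lay above both wild-type arrays, against 10.9% of all 45037 probe sets. In 1 of the 11, that of Ctsw, both lay below, which also holds for 10.9% of all probe sets. Because the genes were picked from this contrast, nothing follows from these shares. Of the 11 probe sets, 8 passed the filter on low signal, covering 6 of the 9 genes. Those of Gzmb, Gzmk and Klrk1 did not, and their values ran from 15.9 to 90.3, around the filter level of 60.03 in units of signal.

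**Figure D1:**
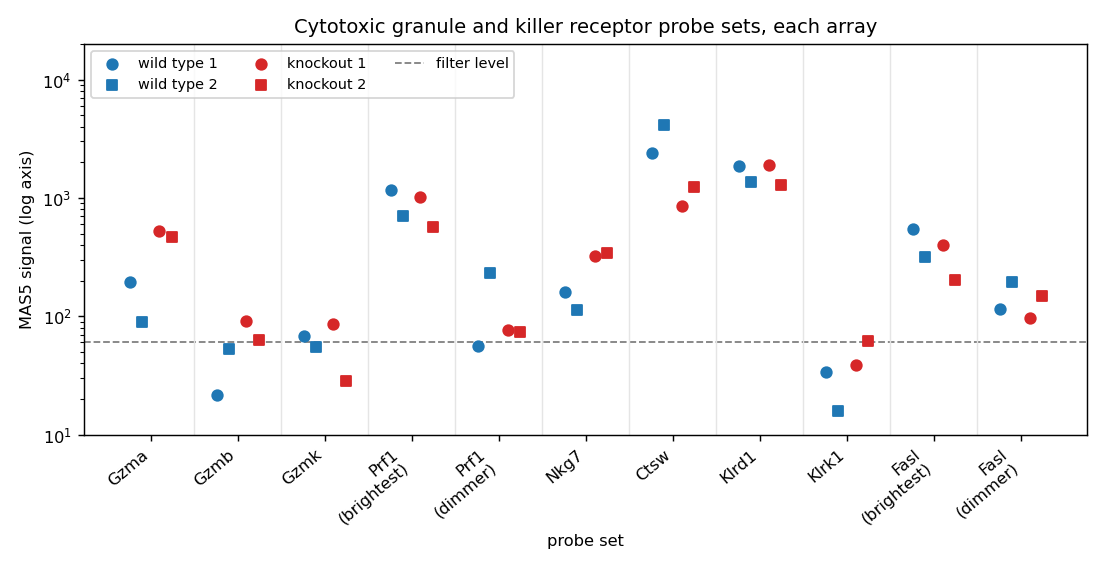
MAS5 signal (log axis) of the 11 probe sets in each of the 4 arrays, with wild-type arrays in blue, knockout arrays in red, arrays numbered 1 as circles and arrays numbered 2 as squares; the dashed line is the filter level. The knockout arrays lie above the wild-type arrays for Gzma, Gzmb, Nkg7 and Klrk1 and below them for Ctsw, and the other 6 probe sets overlap.

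The promoters of Gzma and Nkg7, the genes furthest above the wild type with signals over the filter, are shown because both were higher together. RefSeq promoter windows of GRCm38.p6 were matched for 7 of the 9 genes; those of Ctsw and Klrd1 were not. Each sequence below is the 250 bases upstream of the annotated start, 5′ to 3′ on the gene's strand. Capitals mark matches, on either strand, to 4 motifs: TGTGGT (the core bound by Runx factors), GGTGTGA (a T-box element, the kind bound by Tbx21 and Eomes), TGANTCA (an AP-1 element) and the core of the interferon-stimulated response element, called ISRE here. No matches overlap in the sequences printed. Gzma lies on the minus strand at chr13:113100982-113101231 and Nkg7 on the plus strand at chr7:43436888-43437137.
Gzma: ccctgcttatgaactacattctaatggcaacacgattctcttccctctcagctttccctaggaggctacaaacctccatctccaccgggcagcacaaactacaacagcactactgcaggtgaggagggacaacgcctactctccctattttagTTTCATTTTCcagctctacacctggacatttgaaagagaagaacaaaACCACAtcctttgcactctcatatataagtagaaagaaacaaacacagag
Nkg7: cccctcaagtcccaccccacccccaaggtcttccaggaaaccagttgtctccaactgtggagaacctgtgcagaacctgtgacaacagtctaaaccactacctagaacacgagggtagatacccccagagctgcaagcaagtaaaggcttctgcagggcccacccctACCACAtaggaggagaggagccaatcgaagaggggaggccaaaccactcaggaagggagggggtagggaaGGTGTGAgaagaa

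Both windows hold TGTGGT on the opposite strand, from 50 to 45 bases upstream of the start in Gzma and from 83 to 78 bases upstream in Nkg7. The Gzma window also holds the ISRE core on the opposite strand, 97 to 88 bases upstream, and the Nkg7 window holds GGTGTGA 13 to 7 bases upstream. Among the 7 genes with a window, TGTGGT was present in 5 (Gzma, Gzmb, Prf1, Nkg7 and Klrk1), GGTGTGA in 2 (Gzmk and Nkg7), TGANTCA in 1 (Gzmb) and the ISRE core in 1 (Gzma). Of 32536 distinct windows of the same length, 14% held TGTGGT, 3.33% GGTGTGA, 6.73% TGANTCA and 2.98% the ISRE core. A match of letters is a description and shows no binding.

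Among the granule proteases, Gzma, a tryptase-like granzyme, stood furthest above the wild type. Its signal was 195.4 and 89.6 in the wild-type arrays and 521.2 and 468.4 in the knockout arrays, with means of 142.5 ± 74.8 and 494.8 ± 37.3 (SD, n = 2). The groups do not overlap, and the dimmer knockout array is above the brighter wild-type one. The difference was 1.78 (SE 0.46), a 3.43-fold ratio, with 1.35 in arrays numbered 1 and 2.21 in arrays numbered 2. With any 1 array left out it ran from 1.27 to 2.28. The larger value in arrays numbered 2 goes with the wild-type side, where Gzma was lower by 1.01 on array 2 than on array 1, while the knockout arrays differed by only 0.15.

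Gzmb, the granzyme that cleaves caspases and their substrates after aspartate, was dimmer. It read 21.5 and 52.5 in the wild-type arrays and 90.3 and 63 in the knockout arrays. The groups are separate, but the higher wild-type and the lower knockout array are close. The difference was 0.86 (SE 0.46), with 1.52 and 0.21 within the array numbers. It was 0.42 without wild-type array 1 and 1.31 without wild-type array 2. Gzmk, a second tryptase-like granzyme, had signals of 67.9 and 54.6 in the wild-type arrays and 86.3 and 28.1 in the knockout arrays. Its knockout arrays enclose the wild-type ones, and the differences had opposite signs, 0.29 and -0.69. Their mean of -0.20 (SE 0.52) turned to 0.41 without knockout array 2. Gzma and Gzmk are neighbours in the RefSeq annotation with 0 protein-coding genes between them, yet only the Gzma probe set separated the groups; whether their differences themselves differ was not tested.

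Perforin, encoded by Prf1, forms the pores through which granzymes reach the target cell. Its brighter probe set read 1158.2 and 699.1 in the wild-type arrays and 1018.7 and 567.3 in the knockout arrays. Signals overlap between genotypes and follow the array number. The difference was -0.24 (SE 0.47; -0.18 and -0.29), and it turned to 0.12 without wild-type array 1 and to 0.18 without knockout array 2. The dimmer probe set read 56.2 and 230.7 in the wild-type arrays and 76 and 73.3 in the knockout arrays. It disagrees with the brighter one on array number, since wild-type array 2 is the high value, and gave differences of 0.35 and -1.47. Prf1 therefore had no common direction with Gzma and Gzmb in these arrays.

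Nkg7 is a granule membrane protein that takes part in the release of cytotoxic granules. Its signal was 159.4 and 112.7 in the wild-type arrays and 323.9 and 344.5 in the knockout arrays, with means of 136 ± 33.02 and 334.2 ± 14.6 (SD, n = 2). The knockout arrays are close to each other and both stand above the wild-type arrays. The difference was 1.22 (SE 0.35), a 2.34-fold ratio, with 0.96 and 1.49 within the array numbers, and 0.9998 to 1.45 with any 1 array left out.

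Ctsw encodes cathepsin W, a papain-like cysteine protease found mainly in CD8 T cells and natural killer cells, and it ran the other way. It read 2412.8 and 4114.3 in the wild-type arrays and 851.1 and 1240.2 in the knockout arrays, with means of 3264 ± 1203 and 1046 ± 275.1 (SD, n = 2). Every knockout array is below every wild-type array, and arrays numbered 2 are the brighter of each genotype. The difference was -1.60 (SE 0.44), so that wild type was 3.04-fold higher, with -1.49 and -1.72 within the array numbers. With 1 array left out it stayed between -1.99 and -1.22. Within arrays numbered 1 the raw knockout signal was 0.353 of the wild-type signal, and within arrays numbered 2 it was 0.301. Since the cells were measured in bulk, fewer Ctsw-expressing cells and less Ctsw RNA per cell cannot be told apart, and the same holds for the genes that were higher.

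**Figure D2:**
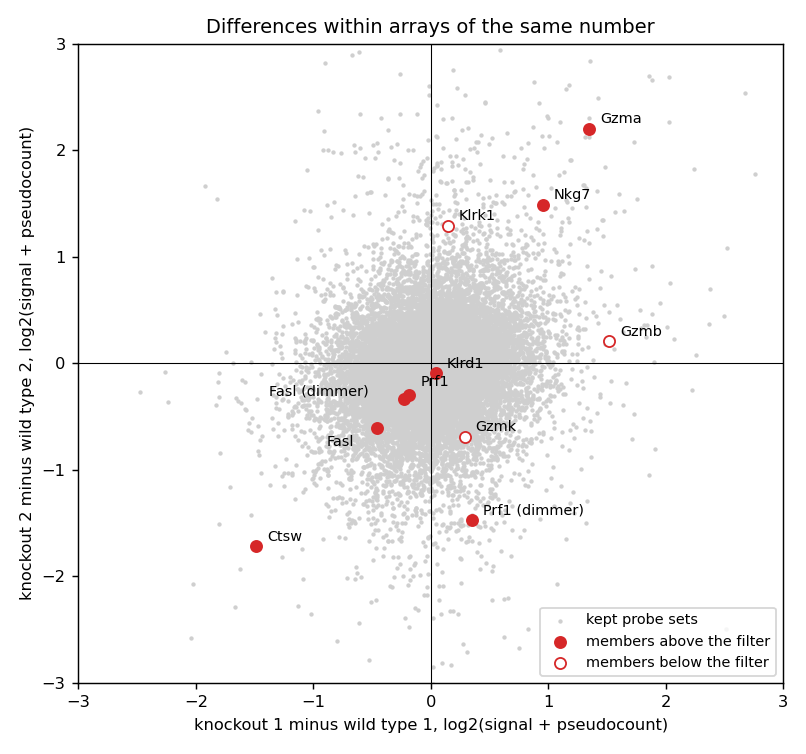
Difference between knockout and wild type within arrays numbered 1 (horizontal) against arrays numbered 2 (vertical), both in log2(signal + pseudocount); grey points are kept probe sets, filled red points are the genes described here above the filter and open points those below it. Gzma and Nkg7 lie high on both axes, Ctsw low on both at -1.49 and -1.72, and Klrd1 and the brighter Prf1 probe set near the origin; 36 kept probe sets lie outside the plotted range of -3 to 3.

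The killer receptors did not share one pattern. Klrd1, or CD94, pairs with NKG2 chains into receptors that read the non-classical MHC molecule Qa-1. Its signal was 1858.6 and 1374.9 in the wild-type arrays and 1911.3 and 1287.6 in the knockout arrays. The genotypes nearly coincide within each array number, and the difference was -0.03 (SE 0.39; 0.04 and -0.09), which turned to 0.19 without wild-type array 1 and to 0.26 without knockout array 2. Klrk1, or NKG2D, an activating receptor for stress-induced ligands, was dim, at 33.5 and 15.9 in the wild-type arrays and 38.6 and 61.2 in the knockout arrays. The groups are separate only by a narrow margin on arrays numbered 1. Its difference was 0.72 (SE 0.43; 0.14 and 1.29), and it ranged from 0.35 with the pseudocount at the median of all values to 1.04 with a pseudocount of 1. Klrd1 and Klrk1 are adjacent protein-coding genes in the RefSeq table.

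Fasl encodes the ligand of the death receptor Fas. Its brighter probe set read 550.9 and 317.1 in the wild-type arrays and 398 and 203.2 in the knockout arrays. The knockout value was the lower within each array number, but the genotypes overlap. The difference was -0.53 (SE 0.50; -0.45 and -0.61), and it shrank to -0.07 without knockout array 2. Array 2 was below array 1 by 0.77 in wild type and by 0.92 in knockout, which enters that value. The dimmer probe set read 115.9 and 193.1 in the wild-type arrays and 96.8 and 149.5 in the knockout arrays, a difference of -0.28 (SE 0.42; -0.23 and -0.34). Both probe sets thus pointed down in both array numbers, while their order by array number was opposite.

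Over the 9 genes, each by its brighter probe set, 4 were higher and 3 lower in both array numbers, and 2 were mixed. Over all 45037 probe sets 25.7% were higher and 26.8% lower in both array numbers. The median difference of the 9 genes was -0.03, and that of all genes kept was -0.002.

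The partners of these genes are not named by the rule, but their lists were written with earlier results of the same contrast known, so their counts are not independent evidence. They were taken from 8 lists, of which 54 distinct genes passed the filter. With limma, 0 of the 54 passed an adjusted p of 0.05. An unadjusted p below 0.05 was found for 1, Tbx21, and for 145 of all 22518 kept probe sets. The wild-type signals of Tbx21, 54.4 and 62.5, lay around the filter level of 60.03, so its place among the 54 rests on the knockout arrays. Nothing follows from its p. In both array numbers 25 of them were higher and 9 lower, where over all 10211 genes kept 27.7% were higher and 27.2% lower. The genotypes did not overlap for 12 genes that were higher and 3 that were lower in knockout, where 8.69% and 8% of all genes kept were so separated. With the array number as a block limma called 0 of the 54, against 0.0266% of all kept probe sets, and with a block and a trended prior also 0, against 1.15%. The median difference was 0.09, beside -0.002 over all genes kept.

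The granule machinery list covers the matrix proteoglycan serglycin, the activator of granzymes Ctsc, its inhibitor Cst7, inhibitors of granzymes, and transport and fusion factors. All 16 genes with a probe set of their own passed the filter. In both array numbers 9 were higher and 4 lower, with a median of 0.21, and 0 passed the limma test. Serpinb6b, a serpin, differed by 0.68 (SE 0.35; 0.92 and 0.44), with signals of 226.9 and 326.9 in the wild-type arrays and 444.2 and 448.1 in the knockout arrays. Serpinb9, the inhibitor that protects cells from granzyme B, differed by 0.47 (SE 0.42; 0.53 and 0.40). Lamp2, a lysosomal membrane protein, differed by 0.46 (SE 1.44; 0.13 and 0.80), and its signals followed the array number, at 3333.6 and 302 in the wild-type arrays and 3650.4 and 535.6 in the knockout arrays. The values overlapped between genotypes for Serpinb9 and not for Serpinb6b. Another serpin of the list, Serpinb6a, named after its values were seen, ran the other way. It read 1094.7 and 1020.7 in the wild-type arrays and 776.1 and 808.5 in the knockout arrays, a difference of -0.41 (SE 0.32; -0.49 and -0.33) with no overlap.

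Most other granzymes and killer receptors were dim. Of the 7 other granzymes only Gzmm passed the filter, at 83 and 141.2 in the wild-type arrays and 68.5 and 156.4 in the knockout arrays, with differences of -0.23 and 0.13. Of 19 other killer receptors with a probe set of their own, 3 passed the filter, and 1 was higher and 2 lower in both array numbers. Crtam, an adhesion receptor of activated cytotoxic cells, read 321.7 and 271.6 in the wild-type arrays and 129.5 and 190.8 in the knockout arrays, a difference of -0.85 (SE 0.36; -1.22 and -0.48). Klrg1, an inhibitory receptor of differentiated effector cells, differed by 0.57 (SE 0.35; 0.91 and 0.24) and Cd160 by -0.43 (SE 0.45; -0.04 and -0.82). None of these 3 passed the limma test. Among the receptors' adaptors, Tyrobp, or DAP12, differed by 1.23 (SE 0.57; 0.38 and 2.07) and Fcer1g by 0.96 (SE 1.10; 0.67 and 1.25). Both are also abundant in myeloid cells. Hcst, or DAP10, the adaptor of Klrk1 in T cells, differed by 0.05 (SE 0.73; 0.11 and -0.003), and Sh2d1a, or SAP, by 0.12 (SE 0.38; 0.23 and 0.01). Of 5 adaptors that passed the filter, 3 were higher and 0 lower in both array numbers, and 0 passed the test. The ligand list had 2 genes with a probe set of their own, Ulbp1 and H60c, and 0 passed the filter.

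Of 9 measured genes of the death receptor route 7 passed the filter, of which 3 were higher and 1 lower in both array numbers, with a median of 0.05 and 0 past the limma test. Tnfsf10, the ligand TRAIL, differed by 0.35 (SE 0.40; 0.49 and 0.21), Cflar, an inhibitor of death receptor signalling, by 0.23 (SE 0.34; 0.44 and 0.01), and Casp8, the initiator caspase, by 0.09 (SE 0.39; 0.16 and 0.02). Fas itself, the receptor of Fasl, differed by -0.13 (SE 0.45; -0.27 and 0.005). Ifng, the Th1 cytokine, was named after its values were seen. It did not pass the filter and read 16.8 and 4.9 in the wild-type arrays and 83.2 and 48.6 in the knockout arrays, so the groups do not overlap and both wild-type values are near or under the added constant.

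Of 13 transcription factors that passed the filter, 7 were higher and 1 lower in both array numbers, with a median of 0.10 and 0 past the limma test. Tbx21, or T-bet, a driver of Th1 and cytotoxic programmes, read 54.4 and 62.5 in the wild-type arrays and 116 and 179.9 in the knockout arrays. It differed by 1.12 (SE 0.37; 0.91 and 1.33) and the groups do not overlap. Batf, an AP-1 family factor, differed by 0.73 (SE 0.55; 0.88 and 0.57) and Id2, an inhibitor of E proteins, by 0.56 (SE 0.35; 0.84 and 0.27). Eomes, the second T-box factor of cytotoxic cells, differed by 0.17 (SE 0.33; 0.10 and 0.24), and Runx3 by 0.10 (SE 0.32; 0.01 and 0.19). Within this list the T-box factors therefore gave unequal values, and the difference between them was not tested.

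**Figure D3:**
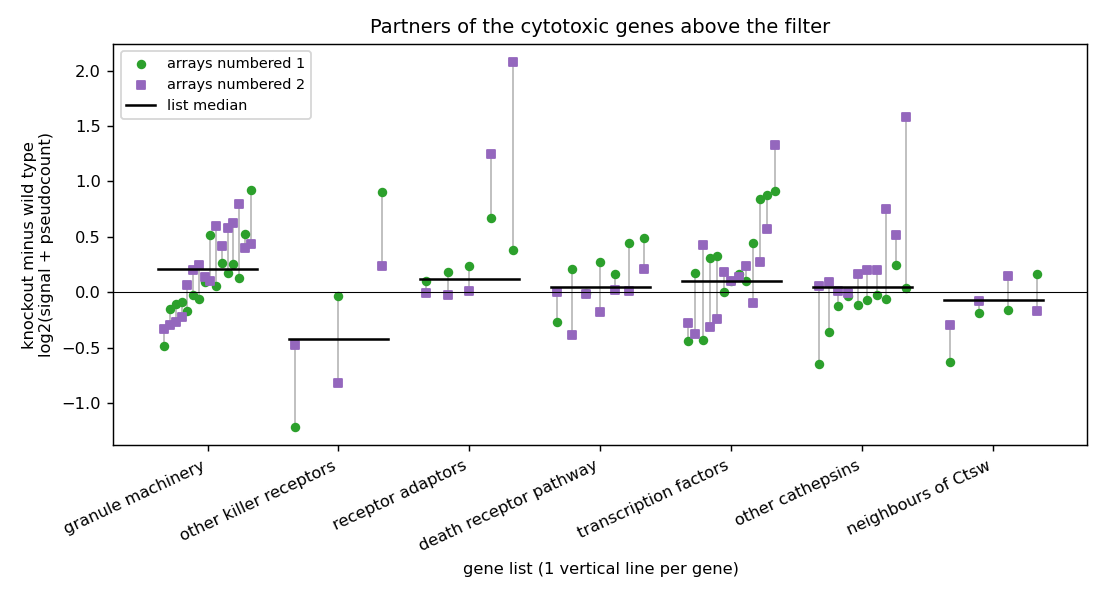
Difference between knockout and wild type, in log2(signal + pseudocount), of each kept gene in 7 lists; each vertical line joins a gene's value in arrays numbered 1 (green circles) and numbered 2 (purple squares), and black bars are list medians of the mean difference. Tyrobp reaches 2.07 in arrays numbered 2, Crtam lies lowest at -1.22 in arrays numbered 1, and most other genes lie near 0 with both signs.

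Ctsw was set beside other cathepsins and beside its neighbours on the chromosome. Of 10 other cathepsins that passed the filter, 2 were higher and 1 lower in both array numbers, with a median of 0.05, and 0 passed the limma test. Ctsh differed by 0.81 (SE 0.82; 0.04 and 1.58), Ctsa by 0.38 (SE 0.32; 0.25 and 0.51) and Ctso by -0.02 (SE 0.40; -0.04 and -0.01). The lowest mean difference among them was that of Ctse, at -0.29 (SE 0.47; -0.65 and 0.06), which was named after its value was seen. The mean differences of the 10 thus ran from -0.29 to 0.81, beside -1.60 for Ctsw; this gap was not tested. Of the 3 nearest protein-coding genes on each side of Ctsw, 4 passed the filter, with a median of -0.07. Fibp differed by -0.47 (SE 0.54; -0.63 and -0.30) and Cfl1, the actin-severing protein cofilin, by -0.13 (SE 0.38; -0.19 and -0.08), while Mus81 and Ccdc85b were mixed. Groups overlapped for all 4.

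Profiles most like those of Gzma and Ctsw were found by Euclidean distance between log2 values over the 4 arrays, each centred on its mean. Nearest to Gzma were Hspa1b (distance 0.40), which has a near-identical copy in Hspa1a so that its signal is uncertain, Il15ra (0.47), Rnf225 (0.48), Gm10033 (0.49) and Gbp2 (0.56). Il15ra, the alpha chain of the interleukin 15 receptor, read 168.4 and 74.4 in the wild-type arrays and 296.6 and 350.3 in the knockout arrays. Nearest to Ctsw were Tspan9 (distance 0.62), Gpd1 (0.68), Tnnt1 (0.70), Sertad3 (0.71) and Shmt1 (0.71). Tspan9, a tetraspanin, read 622.7 and 720.9 in the wild-type arrays and 191.6 and 178.3 in the knockout arrays. The other 4 near Ctsw had smaller mean differences, from -0.97 to -0.95.

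Markers of cells outside the gate were measured beside these results. Of 8 natural killer cell markers, 6 had a probe set of their own and 2, Tyrobp and Eomes, passed the filter. The defining ones were dim. Ncr1, the receptor NKp46, read 22 and 72 in the wild-type arrays and 10.4 and 33.8 in the knockout arrays, and was thus lower within both array numbers. Klre1, at 18.3 and 35.3 in the wild-type arrays and 40.5 and 37 in the knockout arrays, was higher within both, as were Tyrobp and Eomes, and the groups of these 3 do not overlap. Klra8 and Itga2 were mixed and lay between 13.9 and 41.4 in all arrays. The summed signal of the 6 was 468.3 and 457.1 in the wild-type arrays and 521.4 and 756.8 in the knockout arrays, with Tyrobp at 315.4 in the highest. The CD8 markers Cd8a and Cd8b1 summed to 377.6 and 1149.1 in the wild-type arrays and 452 and 1099.3 in the knockout arrays. Cd8b1 differed by 0.17 (SE 0.87; 0.32 and 0.02) and Cd8a by 0.08 and -0.60 within the array numbers. For gamma delta T and NKT cells, 2 of 4 measured markers passed the filter, led by Blk at 0.48 (SE 0.92; 0.23 and 0.73), and the sums were 119.1 and 301.5 against 178.6 and 402.9.

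The summed neutrophil and myeloid markers were higher in knockout within both array numbers, and the B cell sum only within arrays numbered 2. Above the filter lay 5 of 6 measured neutrophil markers and 5 of 8 myeloid ones, and all of these were higher in both array numbers. The filter used the mean over all 4 arrays, so a marker could pass it through high knockout arrays. Camp, for example, read 3 and 85.3 in the wild-type arrays and 26.1 and 599.2 in the knockout arrays. Nothing therefore follows from the counts of higher or called markers in these lists. Of 5 measured B cell markers 4 lay above the filter, and 3 of them were higher in both. Cd22, also above it, was mixed, at -0.28 and 1.42. Of the markers below the filter, Elane and Itgax were higher in both. Cd14 (0.91 and -0.78), Itgam (-0.77 and 0.41) and Pax5 (-0.99 and 0.56) were mixed. The neutrophil sum was 105.6 and 851 in the wild-type arrays and 419.7 and 9395 in the knockout arrays, the myeloid sum 1282.6 and 3276.9 against 1802.4 and 5036, and the B cell sum 315.8 and 1270.8 against 310.1 and 3723.9. Knockout array 2 was the highest in each. Ngp differed by 2.53 (SE 1.07; 1.84 and 3.23) and S100a8 by 2.50 (SE 1.78; 1.5 and 3.50). Lyz2 differed by 1.66 (SE 1.06; 0.99 and 2.33). Cd79b differed by 0.95 (SE 1.49; 0.44 and 1.47) and Ms4a1 by 0.90 (SE 1.37; 0.08 and 1.71). With the array number as a block and a trended prior, limma called 4 of the 5 neutrophil markers (S100a8 adjusted p = 1.16e-05). It also called 1 of the 5 myeloid markers (Lyz2, adjusted p = 0.00265), against 1.15% of all kept probe sets. The fit with the block alone and the fit with neither called 0 of either list. Among the 5 neutrophil markers the genotypes did not overlap for 1, Ngp, and overlapped for the others, S100a8 included. Within arrays numbered 1 the knockout B cell sum was 0.982 of the wild-type sum, and the knockout neutrophil sum was 3.97-fold the wild-type sum. The 4 mast cell and basophil markers were all below the filter, with sums of 37 and 47.8 in the wild-type arrays and 79.6 and 67.2 in the knockout arrays. The T cell list summed to 78515 and 146454 in the wild-type arrays and 73126 and 139032 in the knockout arrays. Its brightest gene, Cd3d, differed by 0.05 (SE 0.99; 0.12 and -0.02), and Ccr7 and Il7r by -0.29 and -0.27. Of the 10 T cell genes above the filter, 0 were higher and 4 lower in both array numbers, namely Ccr7, Il7r, Cd28 and Lef1. Over all genes kept 27.7% were higher and 27.2% lower. The part of these cells in the values of Gzma, Gzmb, Nkg7 and Klrk1 was not tested.

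**Figure D4:**
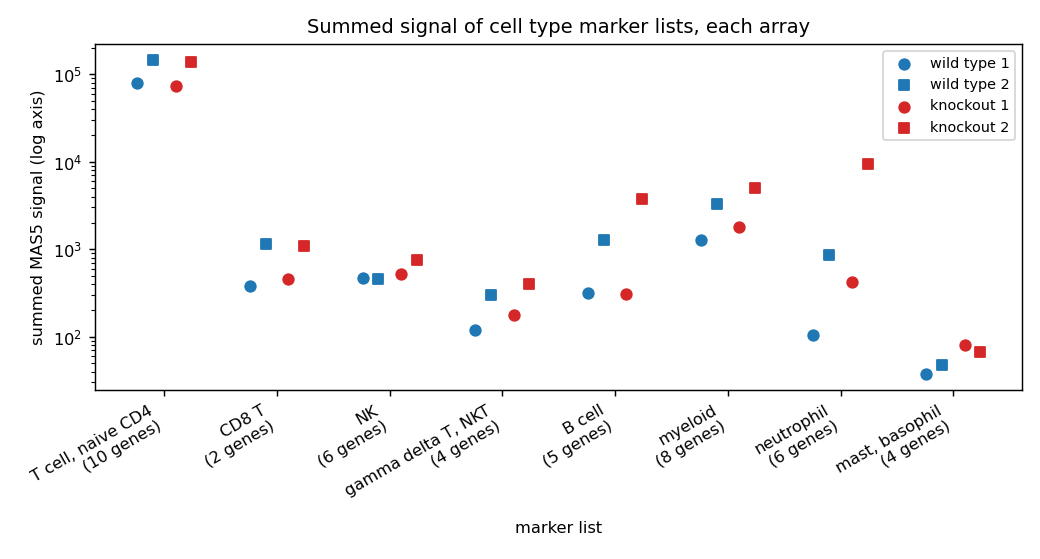
Summed MAS5 signal (log axis) of each cell type marker list in the 4 arrays, with wild-type arrays in blue, knockout arrays in red, arrays numbered 1 as circles and arrays numbered 2 as squares; the number of genes with a probe set of their own is under each name. The knockout T cell sum is 0.931 of the wild-type sum in arrays numbered 1 and 0.949 in arrays numbered 2. The neutrophil sum of 9395 in knockout array 2 stands far above the other arrays.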

How the data were processed

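The arrays were Affymetrix mouse whole-genome arrays. Per the submitters' processing notes the authors used MAS5, and the deposited intensities are its linear signals, one for each probe set. The software's version and its settings were not given in the sources used here. All 4 arrays share a trimmed mean of 500.003 (2% trimmed at each end). Detection calls were not used here.

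Of 45101 probe sets, 64 controls were left out. The constant 15.3, the 25% quantile of the table, was added to each signal before taking log2. Tests used the 22518 probe sets whose mean log2 value exceeded the median of such means, 6.24. A gene is represented by its probe set of highest mean. The genotypes were tested with limma 3.58.1 under R 4.3.3, with no block. Its two-sided p-values from lmFit and eBayes were adjusted over the kept probe sets (Benjamini-Hochberg, threshold 0.05). The fit was run on simulated data and checked only for the size of the estimated differences. How many of them it called is not given, so the run does not show what difference the fit could call. Arrays carry the numbers 1 and 2 in each group, and no shared animal or day is stated. Differences within each number are therefore given beside the mean. Symbols were updated by Entrez identifier through the RefSeq table of GRCm38.p6.

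The 9 genes were chosen from the contrast between genotypes, so they have no p-values. They and all gene lists were chosen with earlier results of these data known. From each list other than the marker lists, up to 3 kept genes with the largest difference of the same sign in both array numbers are named. In the marker lists such genes and the brightest were picked too, but only some of them are named. For Gzma and Ctsw the 5 genes of nearest profile are named. Alternatives varied the pseudocount, the filter, the normalization (quantile or median centring), the prior, a block for array number, the arrays included and the choice of probe set.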

Additional observations from a re-analysis of the deposited data

How the results depend on the processing

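No probe set was called by limma without a block (0 under each of 11 alternatives, the array left out included). With the array number as a replicate block 6 of 22518 were called, and with the replicate block and a trended prior 260; none of the 54 partner genes was among either, and the 260 held 4 neutrophil markers and 1 myeloid marker. Same-numbered arrays deviated together, with a correlation of 0.80 across probe sets, but the labels state no shared origin, so the pairing rests on a number. With 1 array left out, the Prf1 difference ran from -0.65 to 0.18 and turned positive without wild-type array 1 or knockout array 2, Gzmk ran from -0.81 to 0.41 and Klrd1 from -0.31 to 0.26, both changing sign, while Ctsw ran from -1.99 to -1.22 and Gzma from 1.27 to 2.28. A fit on 3 arrays confounds genotype partly with array number. List medians moved in the same way, from -0.73 to 0.056 for other killer receptors, from -0.15 to 0.80 for receptor adaptors, from 0.0048 to 0.28 for other cathepsins and from -0.50 to 0.11 for the neighbours of Ctsw. They ran from 0.045 to 0.18 for granule machinery, from 0.16 to 0.35 for transcription factors and from -0.27 to 0.24 for the death receptor route. The medians with all 4 arrays, 0.21 for granule machinery and 0.10 for transcription factors, lie outside their ranges. Other killer receptors had a median of -0.0011 with no filter, and none lay above the 75% quantile of means, so that setting gave no value. Nkg7 was at 0.99 with the pseudocount at the median of all values. The cause was not tested. The table gives no signal over background, so dim probe sets (Gzmb, Gzmk, Klrk1) are the least certain, and 2 arrays per group limit every value.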
